A study of Danio rerio with 8 samples.

Results

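Zebrafish genes whose transcripts are scarcer at gastrulation than at the 8-somite stage were taken from an array study of whole wildtype embryos (Danio rerio) sampled with and without low oxygen. A row of the value table was included when it carried a RefSeq transcript identifier and the lower of its normoxic 8-somite values exceeded the higher of its normoxic gastrula values by 1 or more on the log2 scale. Of 3055 rows with such identifiers 87 met this rule, and 15 of those were left out by name, among them the somite and muscle genes meox1, tpm4a and smyd1b and the cyp2aa, slc and mrp families. The remaining 72 rows, chosen by their values on the 4 normoxic arrays, are the rising genes described here, out of 37157 rows in the whole table. A gene table gave a symbol for 62 of them, and the other 10 are counted without a name.

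Gastrula embryos were collected at shield stage, 6 h into development, and segmentation embryos at 12 h with 8 somites. The groups were normoxic gastrulae (2 arrays), hypoxic gastrulae (2 arrays), normoxic 8-somite embryos (2 arrays) and hypoxic 8-somite embryos, for which values of 1 array were analysed. The hypoxic embryos had spent 1 to 2 h in medium kept under nitrogen at less than 1% oxygen, and each sample was made from 12 to 15 whole embryos, freed of the chorion and picked by hand for the same stage. The strain was given as wildtype only. Values are log2 after the authors' RMA summary, differences are log2 differences of group means adjusted for labelling dye, and errors are standard errors (SE) of the fit unless stated otherwise.

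Between the shield stage and the 8-somite stage the embryo passes from the first movements of its germ layers to an axis with somites. Its neural plate is by then forming the brain and spinal cord. The yolk syncytial layer supplies the embryo with yolk nutrients. Genes switched on over this interval include regulators and signals that pattern the axis, secreted and matrix proteins, and enzymes and lipid carriers of the yolk syncytial layer and of tissues that begin to differentiate. Lack of oxygen is known to slow or arrest zebrafish embryos and to act on transcription through hypoxia-inducible factor.

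Array medians lay between 8.51 and 8.74. The interquartile range of the values was 2.75 to 3.02 on the 4 normoxic arrays and 2.18 to 2.51 on the 3 hypoxic arrays, so the deposited values were more compressed under hypoxia, and the part of this in the differences below was not tested beyond the quantile normalization given there. Replicate arrays correlated over all rows with Pearson's r between 0.973 and 0.978. Of 6 measured markers of the 8-somite stage 4 were higher at that stage in normoxia, and of 4 measured maternal and early zygotic markers 2 were lower (limma adjusted p under 0.05 over all rows). The 4 were meox1, ripply1, uncx4.1 and smyd1b, all among the genes left out of the members by name. They were listed with earlier results of these data known, so they are no independent check of stage. The stage differences of acta1b (0.95) and pax7a (-0.12) did not pass. In pools of whole embryos, fewer cells of a type and less RNA per cell cannot be told apart.

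The rule fixed the size and direction of the difference in normoxia, which is therefore given without a test. The gap between the lower 8-somite and the higher gastrula value ran from 1.03 to 3.63 over the 72 genes, with a median of 1.54. It was 2 or more in 16 genes and under 1.5 in 34. Just inside the limit were draxina (gap 1.03), a row without a symbol (1.04) and cyp20a1 (1.05), and just outside it were prdm12b (0.99), rdh8a (0.99) and eif2b1 (0.98).

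**Figure D1:**
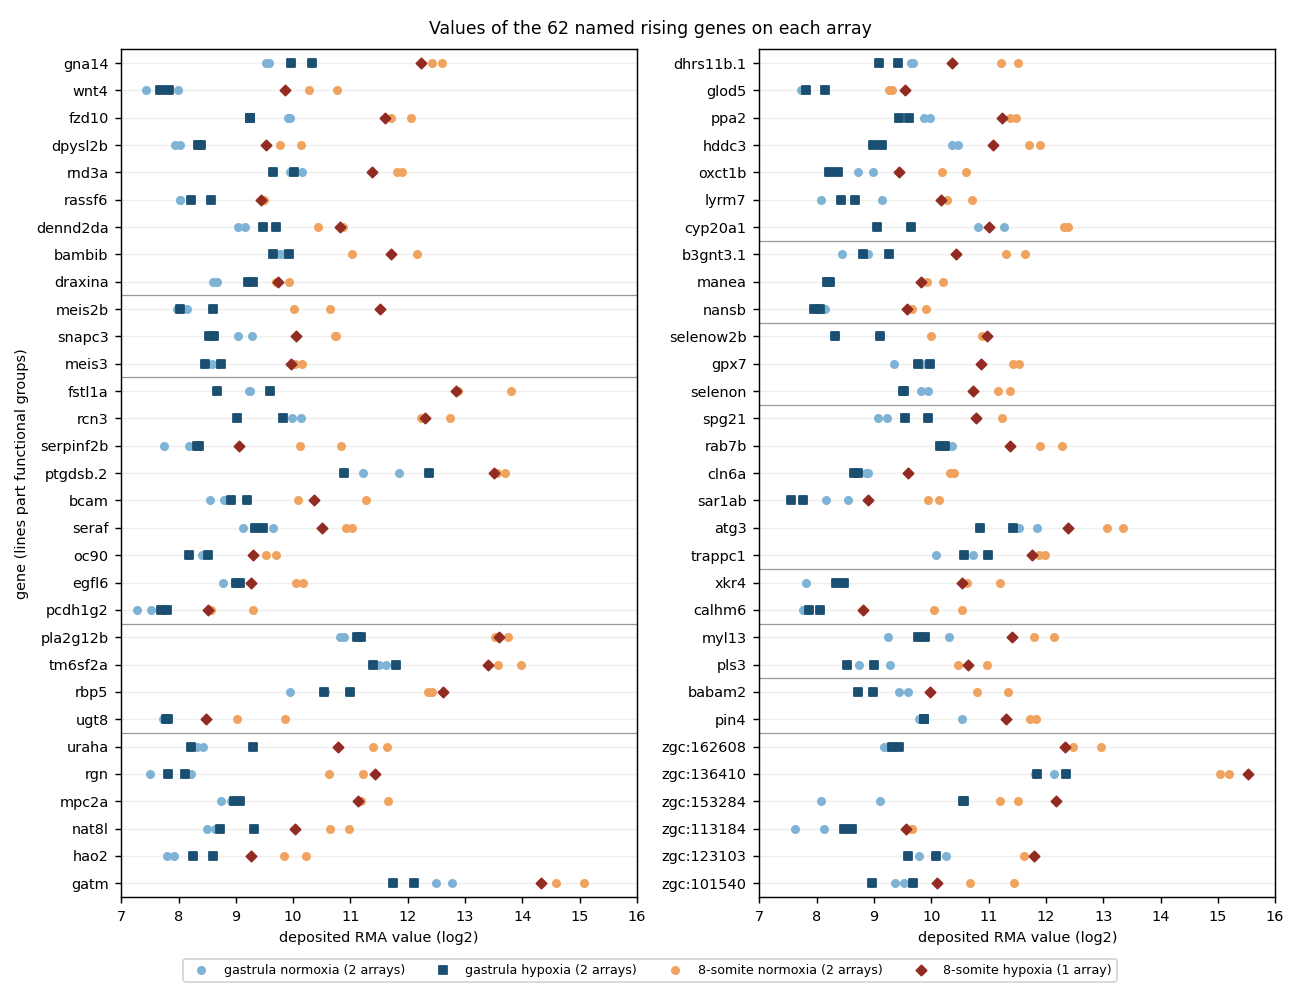
Deposited log2 values of the 62 named rising genes on the 7 arrays with values, 1 gene per line, with functional groups parted by grey lines. Circles are normoxic arrays, squares hypoxic gastrula arrays and diamonds the hypoxic 8-somite array, and the diamond lies to the right of both squares for each of these genes.

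The 3 hypoxic arrays took no part in choosing the genes, so the stage difference among them is the same measure in samples the rule did not use. Under hypoxia the fitted 8-somite minus gastrula difference was above 0 for all 72 genes, with a median of 1.60 and a range from 0.17 to 4.01. Over all 37157 rows the median was -0.10 and 38.5% lay above 0. All rows are not matched to the members for level: the mean level lay above the median of all rows in 69 of the 72 genes, or 95.8%, against 50.0% of all rows. The rise passed the test for 17 of the 72 genes and a fall for 0 (limma, adjusted p from 0.0163 to 0.0494), where 1.97% of all rows passed as higher and 0.423% as lower. At an adjusted p of 0.1 the count was 36 (3.64% of all rows), and without the dye term it was 29 (3.15% of all rows higher and 1.03% lower). These 17 rose between 3.14-fold and 16.1-fold. Of these, 16 have a symbol, namely fstl1a, zgc:136410, rgn, meis2b, rcn3, zgc:162608, selenow2b, gatm, pla2g12b, fzd10, gna14, mpc2a, pls3, hddc3, ppa2 and manea. The fitted differences of the other 55 ran from 0.17 to 2.25. Below, a rise under hypoxia means higher at 8 somites than at gastrula within hypoxia, not higher than in normoxia.

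On the arrays themselves, the hypoxic 8-somite value lay above both hypoxic gastrula values in 71 of 72 genes, against 28.1% of all rows, and the exception was a row without a symbol. It lay above them by 1 or more in 50 genes, or 69.4%, against 5.76% of all rows. The hypoxic 8-somite group has 1 array, which was assumed to vary like the arrays of the other groups, and the normoxic arrays contributed to the estimates of spread and dye. Those normoxic arrays chose the genes, by a rule that favours close replicates. The fitted differences and their p-values are therefore not wholly independent of the choice. On the 3 hypoxic arrays alone 0 genes passed (limma, 65 of 72 at an unadjusted p under 0.05, median difference 1.51). When 1 hypoxic gastrula array or 1 normoxic 8-somite array was left out 0 passed in each of the 4 fits, and when 1 normoxic gastrula array was left out 43 passed in each of the 2 fits. Each of the 17 genes passed in 6 to 10 of 16 alternative fits, with the fewest for ppa2 (6) and for manea, pls3 and selenow2b (7 each). For this stage difference, leaving out either normoxic gastrula array gives the same result, and so does leaving out either normoxic 8-somite array. The 16 fits are therefore not 16 separate checks.

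**Figure D2:**
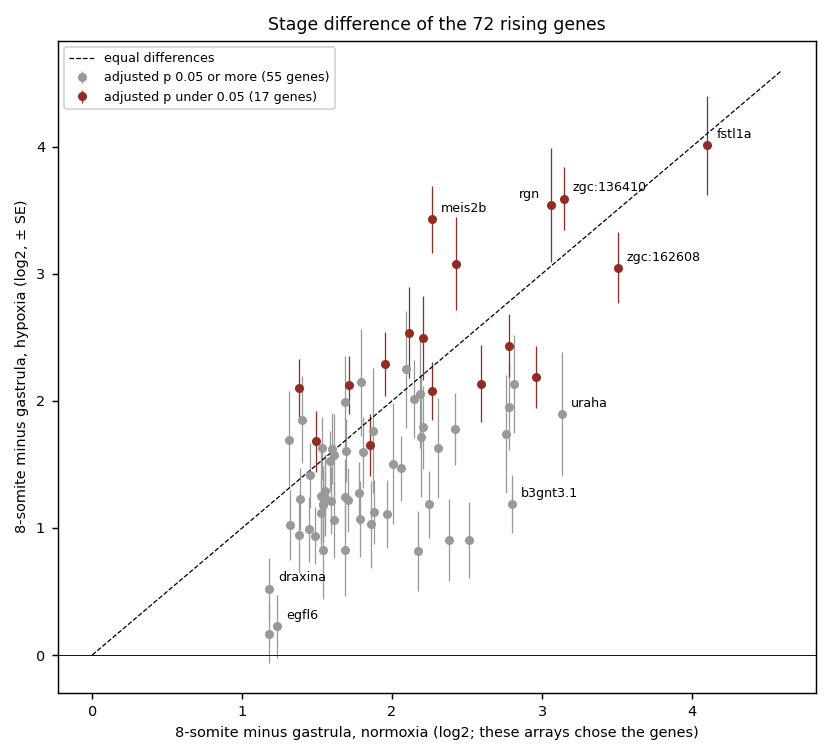
Fitted 8-somite minus gastrula differences (log2) of the 72 rising genes, in normoxia on the horizontal axis and under hypoxia on the vertical axis with SE bars; red marks the 17 genes with an adjusted p under 0.05 under hypoxia. All 72 points lie above 0 on the vertical axis, and 55 lie below the dashed line of equal differences, a side that the choice of genes on the normoxic arrays favours.

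Hypoxia was compared with normoxia within each stage to ask how short oxygen loss bears on these genes. The normoxic arrays chose the genes, for low gastrula values and high 8-somite values, and this choice by itself moves the gastrula difference up and the 8-somite difference down. Both are given as descriptions, with the p-values of the fit over all rows beside them and no claim for the genes as a group. At the gastrula stage 0 of the 72 genes passed in limma, as did 0.0% of all rows, and 13 genes or 18.1% had an unadjusted p under 0.05 against 26.8% of all rows. The median difference was 0.05, with 41 genes above 0, and the quartiles were -0.22 and 0.37. After centring each array on its median, the median was -0.12 with 28 genes above 0, where the median of all rows moved from 0.01 to -0.16. Both hypoxic gastrula values lay above both normoxic ones in 22 genes (31.5% of all rows did so) and below both in 18 (29.8% of all rows).

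At the 8-somite stage 0 of the 72 genes passed (0.0% of all rows), with 15 genes, or 20.8%, at an unadjusted p under 0.05 against 7.09% of all rows. The median difference was -0.33, with 18 genes above 0. The hypoxic value lay below both normoxic values in 52 genes, where 38.4% of all rows did, between them in 8 (27.9% of all rows) and above both in 12 (33.7% of all rows). It lay below both by 1 or more in 5 genes (2.02% of all rows). After the rows were quantile normalized again, which gives all arrays the same spread of values, the median was -0.08 with 31 genes above 0.

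The hypoxia difference was below 0 at both stages in 27 genes, above 0 at both in 14, above 0 at gastrula and below 0 at 8 somites in 27, and the reverse in 4. Over all rows these shares were 37.3%, 37.1%, 14.4% and 11.3%. The difference between the effects at both stages did not pass for any of the 72 genes (limma, 0.0% of all rows passed). At an unadjusted p under 0.05 were 8 genes or 11.1%, against 4.22% of all rows. The choice of genes on the normoxic arrays moves the 8-somite effect minus the gastrula effect down. It also favours signs above 0 at gastrula and below 0 at 8 somites, so these counts are descriptions only.

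**Figure D3:**
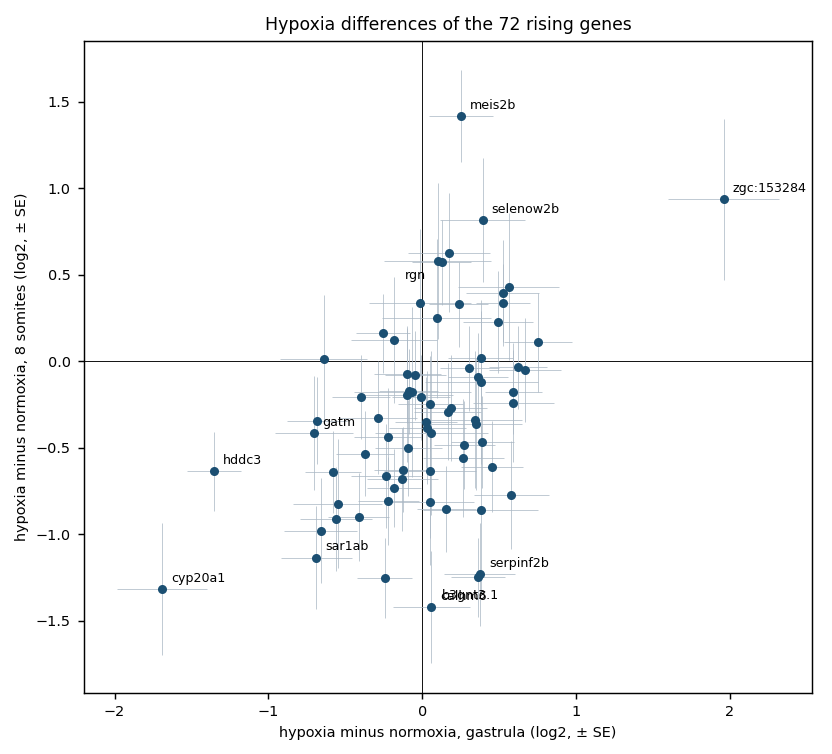
Fitted hypoxia minus normoxia differences (log2, with SE bars) of the 72 rising genes at the gastrula stage (horizontal) and at 8 somites (vertical). The bulk of genes lies within 1 of 0 on both axes; zgc:153284 is far right, cyp20a1 and hddc3 are far left and meis2b is highest.

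Among signals and receptors, the rising genes include a Wnt ligand, a Wnt receptor and antagonists of the Wnt and BMP pathways, which pattern the axis of vertebrate embryos. The Frizzled receptor gene fzd10 (NM_130917) was at 9.92 and 9.94 in normoxic gastrulae, 12.05 and 11.71 in normoxic 8-somite embryos, 9.25 and 9.24 in hypoxic gastrulae and 11.60 in the hypoxic 8-somite sample. It rose between the stages under hypoxia by 2.29 ± 0.25 (limma adjusted p = 0.0283). Both hypoxic gastrula values lay below both normoxic ones (-0.68 ± 0.19). The ligand gene wnt4 had 8.00 and 7.42 in normoxic gastrulae, 10.77 and 10.28 in normoxic 8-somite embryos, 7.84 and 7.68 in hypoxic gastrulae and 9.86 in the hypoxic 8-somite sample. Its stage difference under hypoxia of 2.13 ± 0.39 did not pass (adjusted p = 0.0783). Its hypoxic gastrula values overlapped the normoxic ones, and its hypoxic 8-somite value lay below both normoxic values.

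The gene gna14 (NM_001003753) encodes an alpha subunit of the Gq class of G proteins, which couple receptors to phospholipase C. Its values were 9.58 and 9.53 in normoxic gastrulae, 10.33 and 9.97 in hypoxic gastrulae, 12.43 and 12.60 in normoxic 8-somite embryos and 12.24 in the hypoxic 8-somite sample. It rose with stage under hypoxia by 2.19 ± 0.24, or 4.55-fold (adjusted p = 0.029), and both hypoxic gastrula values lay above both normoxic values (0.59 ± 0.19). The gene draxina encodes draxin, a secreted guidance factor for axons and an antagonist of Wnt signalling. It stood at 8.60 and 8.67 in normoxic and 9.30 and 9.21 in hypoxic gastrulae, which did not overlap (0.62 ± 0.19), and at 9.70 and 9.93 in normoxic and 9.74 in hypoxic 8-somite embryos. Its stage difference under hypoxia was 0.52 ± 0.24, the second lowest of the genes with a symbol, and did not pass (adjusted p = 0.407).

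The other signalling genes included bambib, a pseudoreceptor that dampens BMP and activin signals, the Ras-association gene rassf6, dpysl2b, a microtubule-binding protein of growing axons, and dennd2da, of a family that activates Rab proteins. Their stage differences under hypoxia ran from 0.99 for rassf6 to 2.14 for bambib and none passed. Of the 9 signalling genes 2 rose (1.97% of all rows did). Both hypoxic gastrula values lay above the normoxic ones in 5 (31.5% of all rows) and below in 1 (29.8% of all rows). At 8 somites the hypoxic value was below both normoxic values in 6 (38.4% of all rows) and between them in 3 (27.9% of all rows). Such counts in small groups are descriptions only.

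The transcription group holds the TALE homeobox genes meis2b and meis3, whose proteins act with Hox proteins in the hindbrain and other tissues, and snapc3, a subunit of the complex that starts transcription of small nuclear RNA genes. The value of meis2b (NM_130910) was 8.15 and 7.97 in normoxic gastrulae, 8.60 and 8.03 in hypoxic gastrulae, 10.01 and 10.64 in normoxic 8-somite embryos and 11.51 in the hypoxic 8-somite sample. The hypoxic 8-somite sample was the highest of the 7 arrays, and the hypoxic and normoxic gastrulae overlapped. The stage rise under hypoxia was 3.43 ± 0.27, or 10.8-fold (adjusted p = 0.0176), and the hypoxia difference at 8 somites was 1.41 ± 0.27, the highest of the 72 genes (adjusted p = 0.603, not passing). By contrast meis3 and snapc3 had stage differences under hypoxia of 1.42 ± 0.25 and 1.53 ± 0.24 that did not pass, and their hypoxic 8-somite values lay below both normoxic ones.

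Secreted, matrix and adhesion proteins make up 9 genes. The follistatin-like glycoprotein gene fstl1a (NM_001017860) had the widest gap of all: 9.22 and 9.25 in normoxic gastrulae, 12.88 and 13.80 in normoxic 8-somite embryos, 9.59 and 8.68 in hypoxic gastrulae and 12.85 in the hypoxic 8-somite sample. The stages were apart in both conditions, and hypoxic and normoxic gastrulae overlapped. It rose with stage under hypoxia by 4.01 ± 0.39, or 16.1-fold (adjusted p = 0.0237). The reticulocalbin gene rcn3, a calcium-binding protein of the endoplasmic reticulum that acts in collagen production in mammals, rose by 3.08 ± 0.37 (adjusted p = 0.0325), from 9.82 and 9.01 to 12.31. Its hypoxic gastrula values lay below both normoxic ones (9.98 and 10.14), and its hypoxic 8-somite value lay between the normoxic ones (12.23 and 12.73).

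The other secreted and adhesion genes did not pass under hypoxia. The EGF-like matrix protein gene egfl6 was at 9.0 and 9.07 in hypoxic gastrulae and 9.26 in the hypoxic 8-somite sample, against 8.98 and 8.77 in normoxic gastrulae and 10.17 and 10.06 in normoxic 8-somite embryos, and its stage difference under hypoxia was 0.23 ± 0.25, the lowest of the genes with a symbol. For serpinf2b, which encodes an inhibitor of plasmin, the values were 8.19 and 7.75 in normoxic gastrulae, 8.36 and 8.32 in hypoxic gastrulae, 10.12 and 10.84 in normoxic 8-somite embryos and 9.05 under hypoxia at 8 somites. The hypoxic 8-somite value of serpinf2b lay more than 1 below both normoxic values, a difference of -1.23 ± 0.30 (adjusted p = 0.614). The protocadherin gene pcdh1g2, of a family of neuronal adhesion proteins, had 7.27 and 7.51 in normoxic and 7.69 and 7.80 in hypoxic gastrulae, and at 8 somites 8.56 and 9.30 in normoxia and 8.51 under hypoxia. Its stage difference under hypoxia was 0.82 ± 0.38 and did not pass. The adhesion gene bcam, a laminin receptor, oc90, of the otolith matrix, seraf and the lipocalin gene ptgdsb.2, of the prostaglandin D synthase family, differed between the hypoxic stages by 1.02 to 2.25, none passing.

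Genes of lipid handling include pla2g12b and tm6sf2a, which both act in the making of lipoproteins, the retinol carrier gene rbp5 and ugt8, an enzyme of myelin lipid synthesis. The value of pla2g12b (NM_213430) was 10.89 and 10.81 in normoxic gastrulae, 11.19 and 11.12 in hypoxic gastrulae, 13.74 and 13.51 in normoxic 8-somite embryos and 13.60 in the hypoxic 8-somite sample. It rose with stage under hypoxia by 2.43 ± 0.25, or 5.4-fold (adjusted p = 0.0257). The value reached lay between those of the normoxic 8-somite arrays. For rbp5 the values were 10.55 and 9.94 in normoxic and 10.999 and 10.54 in hypoxic gastrulae, 12.43 and 12.36 in normoxic 8-somite embryos and 12.62 under hypoxia at 8 somites, and the hypoxic 8-somite value was the highest. Its stage difference under hypoxia, 2.01 ± 0.31, did not pass (adjusted p = 0.0519), and that of tm6sf2a was 1.79 ± 0.33. The gene ugt8 reached 8.48 in the hypoxic 8-somite sample against 9.01 and 9.86 in normoxia, from 7.73 and 7.77 in normoxic and 7.82 and 7.77 in hypoxic gastrulae, with a stage difference under hypoxia of 0.83 ± 0.36.

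Metabolic enzymes and mitochondrial proteins form the largest named group, with 13 genes, of which 5 rose between the stages under hypoxia (1.97% of all rows did). The regucalcin gene rgn (NM_205746), a calcium-binding lactonase, was at 8.23 and 7.50 in normoxic gastrulae, 8.11 and 7.82 in hypoxic gastrulae, 11.22 and 10.63 in normoxic 8-somite embryos and 11.43 in the hypoxic 8-somite sample. The hypoxic 8-somite value was the highest, and the rise under hypoxia was 3.54 ± 0.45, or 11.6-fold (adjusted p = 0.0358). For mpc2a, a subunit of the carrier that brings pyruvate into mitochondria, the rise was 2.14 ± 0.31 (adjusted p = 0.046), from 8.96 and 9.07 to 11.12. In normoxia mpc2a stood at 8.74 and 8.92 in gastrulae and 11.19 and 11.66 at 8 somites, so the hypoxic gastrula values were just above the normoxic ones and the hypoxic 8-somite value just below.

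The creatine synthesis gene gatm (NM_199531) rose by 2.5 ± 0.33 (adjusted p = 0.0386), from 12.11 and 11.74 in hypoxic gastrulae to 14.32. It was lower under hypoxia on every array of both stages, with 12.50 and 12.76 in normoxic gastrulae and 14.58 and 15.08 in normoxic 8-somite embryos, although neither difference passed (-0.71 ± 0.25 and -0.42 ± 0.33). The mitochondrial pyrophosphatase gene ppa2 rose by 1.68 ± 0.24 (adjusted p = 0.0462), from 9.44 and 9.61 to 11.24, against 9.98 and 9.87 in normoxic gastrulae and 11.47 and 11.36 in normoxic 8-somite embryos. The gene hddc3, whose mammalian product is a pyrophosphohydrolase, had 10.47 and 10.36 in normoxic gastrulae and 9.14 and 8.98 in hypoxic ones, and at 8 somites 11.70 and 11.89 in normoxia and 11.08 under hypoxia. Hypoxic values of hddc3 were thus below normoxic ones at both stages (-1.36 ± 0.18 at gastrula, limma adjusted p = 0.0582, and -0.64 ± 0.23 at 8 somites), and within hypoxia it rose with stage by 2.1 ± 0.23 (adjusted p = 0.0276).

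The lowest gastrula difference belonged to the P450 gene cyp20a1, which was at 10.81 and 11.27 in normoxic gastrulae, 9.64 and 9.05 in hypoxic gastrulae, 12.32 and 12.39 in normoxic 8-somite embryos and 11.01 in the hypoxic 8-somite sample. Both groups of gastrulae were more than 1 apart, and the hypoxic 8-somite value lay between the normoxic gastrula values. The hypoxia difference was -1.69 ± 0.29 at gastrula (limma adjusted p = 0.0683) and -1.31 ± 0.38 at 8 somites, neither passing. The choice of genes moves the difference up at gastrula and down at 8 somites. Without the dye term the gastrula differences of hddc3 and cyp20a1 passed (adjusted p = 0.0223 and 0.0306), where 5.44% of all rows passed as lower, and over the alternatives run their adjusted p ranged from 0.0179 to 0.547 and from 0.0116 to 0.547.

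The enzyme of uric acid breakdown uraha was at 8.44 and 8.32 in normoxic gastrulae and at 8.21 and 9.30 in hypoxic ones, which differ by over 1 from each other. Its 8-somite values were 11.39 and 11.63 in normoxia and 10.77 under hypoxia, and its stage difference under hypoxia, 1.90 ± 0.48, did not pass (adjusted p = 0.159). The peroxisomal hydroxyacid oxidase gene hao2 was higher in both hypoxic gastrula arrays (8.26 and 8.61) than in the normoxic ones (7.79 and 7.91) and lower in the hypoxic 8-somite sample (9.27) than in its controls (9.83 and 10.22), so that the stages differed by 0.82 ± 0.31 under hypoxia (not passing). The remaining enzymes were nat8l, which makes N-acetylaspartate, the ketone body enzyme gene oxct1b, the dehydrogenase gene dhrs11b.1, the glyoxalase-domain gene glod5 and lyrm7, an assembly factor of respiratory complex III. Their stage differences under hypoxia ran from 1.19 for nat8l to 1.76 for lyrm7, with none passing. Over the group, both hypoxic gastrula values were below the normoxic ones in 6 genes (29.8% of all rows) and above them in 4 (31.5% of all rows). The hypoxic 8-somite value was below both normoxic ones in 11 (38.4% of all rows).

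Of 3 enzymes of glycan synthesis and trimming, manea, an endomannosidase of the Golgi, rose with stage under hypoxia by 1.65 ± 0.25 (adjusted p = 0.0494). Its hypoxic values went from 8.18 and 8.23 in gastrulae to 9.81 at 8 somites. In normoxia manea stood at 8.24 and 8.19 in gastrulae and 9.93 and 10.20 at 8 somites. The sialic acid synthase gene nansb differed by 1.61 ± 0.25 (adjusted p = 0.053). The N-acetylglucosaminyltransferase gene b3gnt3.1 had 8.44 and 8.89 in normoxic and 8.81 and 9.25 in hypoxic gastrulae, which overlapped, and 11.64 and 11.30 in normoxic 8-somite embryos against 10.43 under hypoxia. Its hypoxia difference at 8 somites was -1.25 ± 0.23 (adjusted p = 0.603, not passing), the group's lowest.

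Redox proteins were the selenoprotein genes selenow2b and selenon and gpx7, a peroxidase of the endoplasmic reticulum. Values of selenow2b (NM_194418) were 8.32 and 8.31 in normoxic gastrulae, 9.10 and 8.32 in hypoxic gastrulae, 9.99 and 10.88 in normoxic 8-somite embryos and 10.97 in the hypoxic 8-somite sample. The hypoxic 8-somite sample was the highest array, and the rise under hypoxia was 2.54 ± 0.36 (adjusted p = 0.0451), which did not pass without the dye term (adjusted p = 0.0618). In gpx7 and selenon the hypoxic 8-somite value lay below both normoxic ones (-0.48 ± 0.25 and -0.53 ± 0.24), and their stage differences under hypoxia of 1.12 and 1.23 did not pass.

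The 6 genes of the next group act in vesicle traffic, lysosomes or autophagy: rab7b, a Rab GTPase of endosomes, sar1ab, the GTPase that starts COPII coats, the tethering subunit gene trappc1, atg3, which joins lipid to the LC3 family, cln6a, whose human counterpart is mutated in a lysosomal storage disease, and spg21, mutated in a human spastic paraplegia. None passed under hypoxia, with stage differences from 0.94 to 1.27. Both hypoxic gastrula values were below the normoxic ones in 4 of the 6 (29.8% of all rows). The hypoxic 8-somite value was below both normoxic ones in 5 (38.4% of all rows). The gene sar1ab was at 8.16 and 8.54 in normoxic gastrulae, 7.76 and 7.56 in hypoxic gastrulae, 9.94 and 10.13 in normoxic 8-somite embryos and 8.90 under hypoxia at 8 somites, and its differences were -0.69 ± 0.23 and -1.13 ± 0.30. By contrast spg21 was higher in hypoxic gastrulae (9.54 and 9.94) than in normoxic ones (9.07 and 9.22), and its hypoxic 8-somite value of 10.78 equalled the lower of its controls to 2 decimals (10.78 and 11.23).

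Among membrane proteins, calhm6, of a family of calcium homeostasis modulator channels, had the lowest hypoxia difference at 8 somites, -1.42 ± 0.32 (adjusted p = 0.614). It was at 8.80 in the hypoxic 8-somite sample against 10.04 and 10.53 in normoxia, and at 7.76 and 8.05 in normoxic and 8.06 and 7.87 in hypoxic gastrulae. The hypoxic sample thus lay more than 1 below both controls, while the gastrulae overlapped. The XK-related gene xkr4, whose mouse product moves phospholipids across the membrane, was at 7.81 and 8.46 in normoxic and 8.47 and 8.33 in hypoxic gastrulae and at 8 somites 11.21 and 10.61 in normoxia and 10.53 under hypoxia, and its stage difference under hypoxia of 1.95 ± 0.34 did not pass (adjusted p = 0.0726).

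The actin-bundling gene pls3 rose with stage under hypoxia by 2.12 ± 0.23 (adjusted p = 0.0273), from 8.99 and 8.53 to 10.63. In normoxia pls3 stood at 9.28 and 8.74 in gastrulae and 10.47 and 10.98 at 8 somites. Its hypoxic and normoxic values overlapped at gastrula. Without the dye term the rise of pls3 did not pass (adjusted p = 0.0521). The myosin light chain gene myl13 differed by 1.72 ± 0.48 between the hypoxic stages and did not pass. The nuclear proteins were babam2, of a BRCA1-containing complex, and the parvulin gene pin4, a prolyl isomerase. Values of babam2 were 9.44 and 9.59 in normoxic and 8.99 and 8.72 in hypoxic gastrulae, which did not overlap (-0.66 ± 0.24), and at 8 somites 10.80 and 11.35 in normoxia and 9.98 under hypoxia (-0.98 ± 0.31). The fitted hypoxia differences of babam2 and pin4 were below 0 at both stages, and none passed.

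A further 6 genes carry clone-based names and were assigned no role, although zgc:136410 and zgc:162608 are on the yolk and lipid list below. Of these zgc:136410 (NM_001040294) was at 12.13 and 11.81 in normoxic gastrulae, 12.34 and 11.85 in hypoxic gastrulae, 15.04 and 15.19 in normoxic 8-somite embryos and 15.52 in the hypoxic 8-somite sample, the highest array. The largest value in the whole table was 15.96. With stage, zgc:136410 rose under hypoxia by 3.59 ± 0.25, or 12.1-fold, with the smallest adjusted p of the 72 genes (0.0163). Values of zgc:162608 (NM_001089487) were 9.17 and 9.24 in normoxic and 9.43 and 9.32 in hypoxic gastrulae, 12.47 and 12.96 in normoxic 8-somite embryos and 12.33 under hypoxia at 8 somites, and it rose by 3.05 ± 0.28 (adjusted p = 0.022).

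The highest gastrula difference was that of zgc:153284, with 9.11 and 8.08 in normoxic gastrulae and 10.57 and 10.55 in hypoxic ones. It is the only member with both hypoxic gastrula values 1 or more above both normoxic ones (2.0% of all rows), where cyp20a1 and hddc3 had both 1 or more below (3.65% of all rows). Its normoxic replicates were themselves about 1 apart. Low normoxic gastrula values chose the genes, which by itself moves a gastrula difference up. At 8 somites zgc:153284 was at 11.51 and 11.20 in normoxia and 12.17 under hypoxia. The gastrula difference was 1.96 ± 0.36 (limma adjusted p = 0.0718) and passed without the dye term (adjusted p = 0.0359, 2.7% of all rows higher), while over all alternatives its adjusted p ranged from 0.00943 to 0.547. The gene zgc:113184 stood at 8.13 and 7.63 in normoxic and 8.48 and 8.62 in hypoxic gastrulae, without overlap (0.67 ± 0.23), and at 8 somites at 9.67 and 9.67 in normoxia and 9.55 under hypoxia. The other clone-named genes, zgc:123103 and zgc:101540, had stage differences under hypoxia of 1.99 and 1.06 that did not pass.

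The 10 members without a symbol ranged from 0.17 to 2.08 in their stage difference under hypoxia, and 1 of them rose (1.97% of all rows did). Both hypoxic gastrula values were above the normoxic ones in 3 (31.5% of all rows) and below in 3 (29.8% of all rows). The hypoxic 8-somite value was above both normoxic ones in 4 (33.7% of all rows) and below in 6 (38.4% of all rows).

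**Figure D4:**
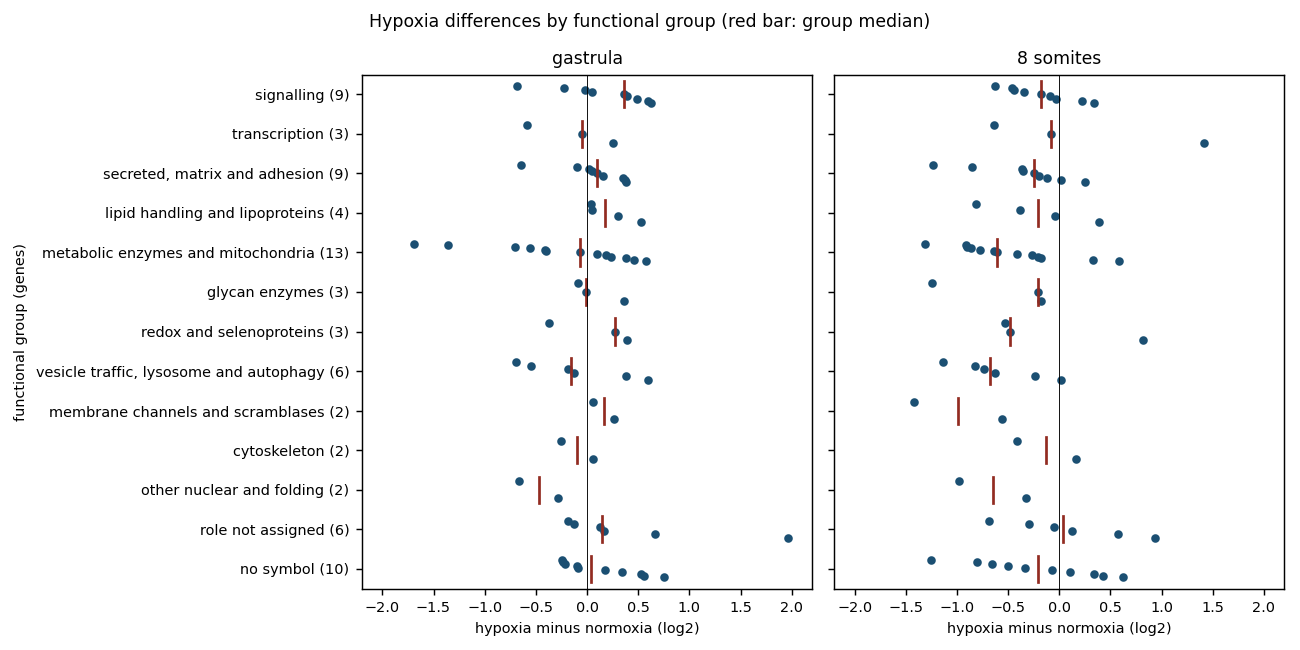
Fitted hypoxia minus normoxia differences (log2) of the 72 rising genes by functional group, at gastrula (left) and 8 somites (right); points are genes and red bars group medians. At 8 somites the medians of 12 of the 13 groups lie below 0, the exception being the clone-named genes, and the choice of genes favours that side.

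Genes of related pathways were read from lists of known members, of which the array rows with a symbol hold few. Of 78 listed genes of the yolk syncytial layer, lipid transport and liver-type proteins 9 were measured and 4 are members (pla2g12b, uraha, zgc:136410 and zgc:162608); the last 3 had been put on the list with earlier results of these data known. Under hypoxia 4 of the 9 rose with stage and 0 fell, the fourth being the fatty acid carrier gene fabp1b.1 (1.76 ± 0.25; adjusted p = 0.0452), which was left out of the members by name. Without the 3 genes put on the list with results known, 2 of 6 rose (pla2g12b and fabp1b.1), and gc (0.21), hnf4b (0.67), sid4 (0.87) and urad (-0.63) did not pass. Of 10 measured neural patterning genes 1 rose (meis2b), of 8 measured matrix and secreted protein genes 1 (fstl1a), and of 17 measured enzymes of amino acid, purine and intermediary metabolism 1 (gatm), with 0 falling in each. Of all rows 1.97% passed as higher. All lists were made with earlier results of these data known, so their counts, the 2 of 6 included, are descriptions and no independent support.

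The lists of muscle contraction (15 measured), blood, heart and vessels (16), epidermis (8), cilia (21) and proteolysis and lysosomes (9) hold 0 members. So do the list of Hox and caudal-type genes (3 measured: hoxc13b, cdx1a and cdx1b) and that of the hatching gland (1). The list of hypoxia-inducible factor targets and regulators (9 measured, the regulator vhl among them) holds 0 as well. In these lists 0 measured genes passed in either direction between the hypoxic stages (limma). The muscle genes tpm4a and smyd1b, the epidermal gene agr1 and the hypoxia-inducible factor target plod2 could not be members, being left out by name. Their stage differences were 3.43, 1.40, 2.60 and 1.22 in normoxia and 0.66, 1.19, 1.30 and 0.49 under hypoxia. A count of 0 members thus does not mean that no listed gene rose in normoxia. Nor does it mean that no member is of these kinds, since the lists are not complete. The members myl13, a myosin light chain gene, and cln6a and rab7b, of the group that includes lysosomes, were not listed. For the hypoxia differences 0 genes of any list passed at either stage, as 0 rows did overall.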

How the data were processed

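Total RNA of pooled whole embryos was labelled with Cy3 or Cy5 and hybridised to arrays. The deposited values were summarised with RMA by the authors, per the submitters' processing notes. Their log2 scale was read from the deposited range of 6.85 to 15.96, and array design and software are not given in the sources used here. Of 8 sample columns 1, for the second hypoxic 8-somite sample, held no values and was not used. The series' design text gives 1 chip for each sample and calls the replicates biological.

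Of 3055 RefSeq transcript rows 2663 matched a symbol in the RefSeq table of GRCz12tu, from which names only were taken, and 392 did not. A linear model with 4 groups and dye was fitted over all 37157 rows in limma 3.58.1 (R 4.3.3) with empirical Bayes moderation, 2 residual and 2.92 prior degrees of freedom, and Benjamini-Hochberg adjustment over all rows at 0.05. The fitting code was tested on simulated data. There the fitted differences returned the simulated ones, but in tables with few changed rows the smaller changes did not pass and the larger ones passed in part or not at all. A gene that did not pass, counts of 0 included, is therefore not shown to be unchanged. Tests were two-sided. The number of arrays limits the precision.

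The members and lists were chosen with earlier results of these data known, and functional groups were assigned after the members were seen. Values on every array were given by rule for 31 genes with a symbol: the 12 widest gaps, the 6 highest and 6 lowest hypoxia differences at each stage, the 6 lowest stage differences under hypoxia, and those nearest the limit. Other members were named as examples of their group, with values seen. Alternatives changed the dye term, normalization, low-value filter, prior variance, threshold and samples.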

Additional observations from a re-analysis of the deposited data

How the results depend on the processing

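The fitted stage difference under hypoxia was above 0 for all 72 rising genes in each of the 16 alternative fits, and its median stayed between 1.41 and 1.70. These fits are not separate checks of its sign. The intensity trend, the robust prior and the low-value filter leave each difference as in the main fit. The fit without dye and that on the hypoxic arrays alone give equal differences, as do the fits without either array of a normoxic group. The count that passed, 17, depended on the fit. It was 29 without the dye term (15 shared with the 17), 0 on the hypoxic arrays alone and 36 at an adjusted p of 0.1, and it ran from 0 to 43 when 1 array was left out. It was 0 without either normoxic 8-somite array or either hypoxic gastrula array, where the smallest adjusted p was 0.0628 to 0.208, and 43 without either normoxic gastrula array. With the replicate block within each stage it was 0. It lay between 13 and 24 under the remaining settings, where 647 to 996 rows of the fit passed as higher and 131 to 247 as lower. The 996 were of 27868 rows, with the low-value filter. Of the 17 genes, pls3 and selenow2b did not pass without the dye term, gna14, hddc3, manea, mpc2a and ppa2 with a prior variance that follows intensity, manea, mpc2a, ppa2 and selenow2b with a robust prior, ppa2 after quantile normalization, and fstl1a, pls3, rcn3 and selenow2b with the replicate block in place of dye. Over all rows 733 passed as higher and 157 as lower, against 1171 and 384 without the dye term and 1856 and 712 without either normoxic gastrula array, and 0 where 0 of the rising genes passed. Fits that leave out an array assume that a lone sample varies like the others, and the lone hypoxic 8-somite array could not be left out.

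For hypoxia at gastrula the count of 0 became 3 without the dye term, 3 with the lowest 25% of rows left out, 3 at an adjusted p of 0.1, 2 after median centring and 1 with a prior variance that follows intensity, and it ran from 0 to 7 when 1 array was left out. The 7, without normoxic gastrula replicate 1, were zgc:153284 and zgc:113184 higher and rcn3, hddc3, sar1ab, gatm and cyp20a1 lower, while 3132 of all rows passed as higher and 5143 as lower. At 8 somites 0 passed in each setting, and the median of -0.33 ran from -0.43 to -0.08. Over all rows the gastrula difference passed as higher in 2.7% and as lower in 5.44% without the dye term. With the low-value filter it passed in 615 and 1387 of 27868 rows. After median centring it passed in 219 and 1081 of 37157 rows. With the prior variance that follows intensity these counts were 782 and 930. For the adjusted p of 0.1 no count over all rows was made at gastrula, so those 3 genes cannot be set against a general rate. The cause of the changes between settings was not tested.

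Replicate numbers were not taken as pairs. The deviations of same-numbered gastrula arrays correlated across rows at -0.15, and those of normoxic arrays of both stages at 0.54. Same-numbered gastrula arrays carried the same dye, and same-numbered normoxic arrays of both stages carried opposite dyes. The dye term takes the deviations to be alike in the first case and opposite in the second. The signs seen were the reverse, and what this means for the dye adjustment was not tested. With the replicate number as a block in place of dye, 17 genes passed for stage under hypoxia and 2 for hypoxia at gastrula. Of all rows, 811 passed as higher and 218 as lower for stage, and 405 and 970 for hypoxia at gastrula. With the replicate block within each stage 0 passed in either. A crossed replicate block within each stage, chosen after seeing the data, gave 18 and 3. Of all rows it gave 841 higher and 206 lower for stage, and 1914 and 3434 for hypoxia at gastrula.

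A gap of 0.5 gave 169 members and one of 1.5 gave 38. After quantile normalization the rule took 70 rows, 66 of them members, and after median centring 69, of which 68 are members. Among the 31 genes named by rule, 87 values of the stage difference under hypoxia no longer passed under an alternative and 24 newly passed, and 385 kept their side of the threshold.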
